A study of Homo sapiens with 36 samples.

Results

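The 6 libraries described here compare HL60 cells treated for 24 h with 0.1 µM cytarabine and 0.02 µM daunorubicin together (3 libraries, the combination) with HL60 cells given the solvent DMSO (3 libraries). They were taken by cell line and treatment label from a series of 36 libraries of 3 acute myeloid leukemia (AML) lines. HL60 is an established human promyelocytic leukemia line, a single line that stands for 1 leukemia genotype, and no allele was added or removed in any group. The 3 HL60 libraries with 0.1 µM cytarabine alone and the 3 with 0.02 µM daunorubicin alone, at the same time, are used only where the combination is set beside a single drug. Samples of a group are labelled as biological replicates, and the sources used here do not say which cultures or days they share, so the p-values cover the variation among these libraries. All values come from bulk RNA, in which fewer cells of a type and less RNA per cell cannot be told apart.

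Cytarabine is a cytidine analog. After uptake and phosphorylation it is built into DNA by the polymerase that takes it for a nucleotide, and it stalls the replication fork. Daunorubicin is an anthracycline that slides between base pairs and traps topoisomerase II on cut DNA. Given together they form the backbone of induction therapy in AML. DNA damage is known to act on transcription through checkpoint signalling, through NF-kB and AP-1 factors, and through nucleolar stress, and HL60 is known for amplified MYC.

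Total estimated counts were 30793743 to 33451123 with DMSO and 30949987 to 37758799 with the combination, and genes with at least 10 counts numbered 13655 to 13948 and 14737 to 15717. The share of counts on the mitochondrial genome was 4.61% to 5.36% with DMSO and 5.95% to 7.72% with the combination, and the share on transcripts annotated as retained introns was 4.69% to 4.94% and 5.03% to 6.07%. Neither pair of ranges overlapped, and the part of either in the results below was not tested. On the first principal component of the 12 HL60 libraries, which held 53.6% of the variance, the DMSO libraries lay between -87.2 and -77.0, and combination replicates 1, 2 and 3 at 63.0, 69.2 and 46.2. Replicate 3 thus lay nearest to DMSO, and a call that a named gene lost without 1 library is marked beside it. CPM here are counts per 1000000 after scaling by TMM over the 12 HL60 libraries, a scale that compares libraries within a gene and not genes of different length. Each ± after a log2 fold change is a standard error from the edgeR fit of the 6 libraries, and each adjusted p is its Benjamini-Hochberg value over all genes tested.

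Of 14802 genes tested, 2517 were called higher (17%) and 938 lower (6.34%) after the combination, where a call needs a fold change above 1 or below -1 on the log2 scale with an adjusted p under 0.05. Those shares of all genes are the background for each list count against DMSO below. Without the fold threshold the counts were 4173 and 3668, which is 28.2% and 24.8% of the genes tested, so that most falls that passed the false discovery rate were smaller than the fold threshold. The split moved with the scaling: with library totals alone in place of TMM the median of all genes went from 0.03 to 0.27 on the log2 scale, and 3218 genes were called higher and 486 lower. In 4653 genes (31.4%) the lowest combination library was above the highest DMSO library, and in 4457 (30.1%) the highest was below the lowest. Without combination replicate 3 there were 2664 higher and 1133 lower calls, and without combination replicate 2 there were 2315 and 781.

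Rises were most frequent among genes nearly silent in DMSO. Among the 2874 tested genes under 1 CPM in DMSO, 1259 were called higher (43.8%) and 87 lower (3.03%). The shares crossed over with the level in DMSO. Between 1 and 10 CPM, 836 of 3182 genes were higher and 188 lower, and between 10 and 100 CPM the counts were 403 and 317 of 6216. Among 2530 genes at 100 CPM or more, 19 were called higher (0.751%) and 346 lower (13.7%). A gene near 0 in DMSO enters the test through its level in the treated group, so the first of these shares is not independent of the count filter, and neither are the counts and medians of lists below whose members were near 0 in DMSO. Long noncoding RNAs had 525 higher and 118 lower calls of 2451 genes tested, and protein-coding genes 1914 and 786 of 11857.

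**Figure D1:**
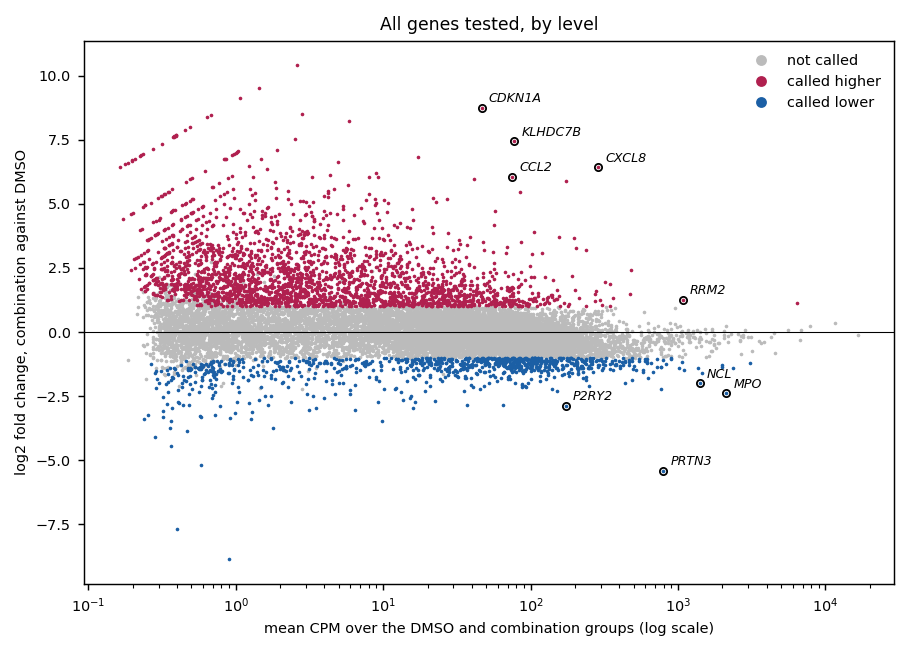
Log2 fold change of the combination against DMSO for each gene tested (vertical axis) against its mean CPM over both groups (horizontal axis, log scale), with genes called higher in red, called lower in blue and not called in grey. Higher calls crowd at low levels and thin out to the right (CDKN1A is at 8.75), while among highly expressed genes most calls are lower, as for MPO (-2.38) and NCL (-1.99).

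The cell cycle inhibitor CDKN1A, which encodes p21, rose from near silence. It stood at 0.382, 0.174 and 0.103 CPM in the DMSO libraries and at 95.8, 114 and 68.4 CPM with the combination, a log2 fold change of 8.75 ± 0.34 (adjusted p = 2.37e-07). Every combination library lay far above every DMSO library, and also above the 44.6, 36.9 and 43 CPM with cytarabine and the 1.96, 2.87 and 1 CPM with daunorubicin. BTG2, an antiproliferative gene, went from 5.65, 4.21 and 2.85 CPM to 125, 81.7 and 127 CPM (4.73 ± 0.26 on the log2 scale, adjusted p = 2.22e-06). The groups did not overlap, although cytarabine alone had BTG2 at 122, 32.5 and 120.0 CPM. Of 29 genes known to respond to DNA damage that were found in the files 24 were tested, 9 were called higher and 1 lower (8 to 10 and 0 to 2 with a library left out), with a median of 0.61 beside 0.03 for all genes, and with library totals alone the counts were 12 and 0. BBC3 and PMAIP1, which encode the death activators PUMA and NOXA, rose by 2.31 and 1.35, the damage sensor DDB2 rose by 1.58, and the death receptor TNFRSF10B rose by 1.58. FAS rose by 1.07, and its call was lost without DMSO replicate 3 or combination replicate 2. Other widely used members were not called: MDM2, a ubiquitin ligase gene, had a log2 fold change of -0.09 ± 0.11, BAX -0.01 ± 0.10, CCNG1 0.05 ± 0.11 and ZMAT3 -0.55 ± 0.15. TRIAP1 was called lower (-1.06 ± 0.13), a call lost without DMSO replicate 1.

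**Figure D2:**
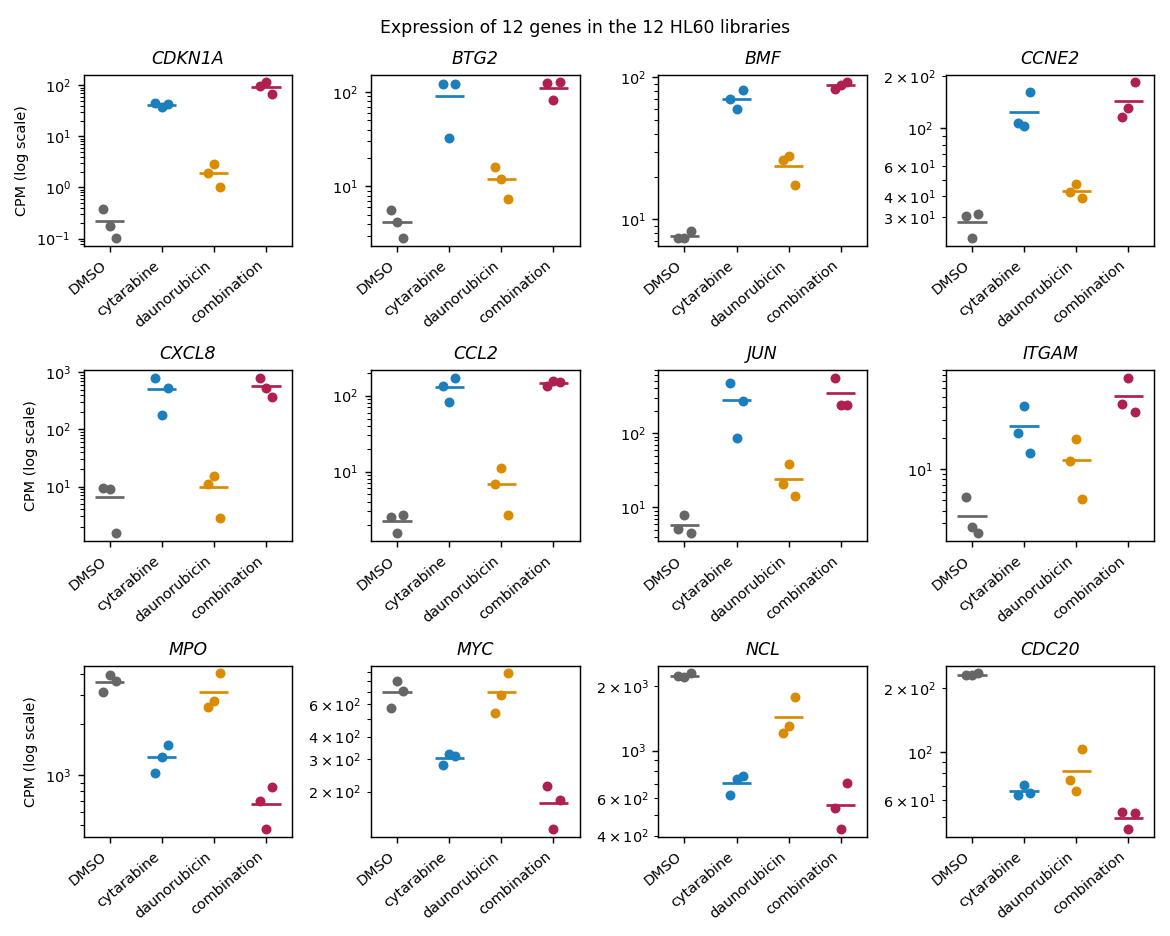
CPM (vertical axis, log scale) of 12 genes in each of the 12 HL60 libraries, with points for libraries and bars for group means of 3. CDKN1A, CXCL8, CCL2 and JUN are higher in all 3 combination libraries than in DMSO and daunorubicin, MPO, MYC and NCL are lower, and cytarabine alone lies near the combination for most of the 12 genes.

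Some cyclin and E2F genes rose. CCNE2, a cyclin that drives entry into S phase, went from 30.8, 22.8 and 31.2 CPM to 115, 132 and 185 CPM, with all 3 combination libraries above DMSO (2.36 ± 0.19, adjusted p = 1.14e-05). CCNE1 rose by 1.08 (call lost without combination replicate 3), and the E2F repressors E2F7 and E2F8 rose by 1.55 and 1.46. Of 29 cyclins, cyclin-dependent kinases, their inhibitors and E2F genes, all tested, 8 were called higher and CCNB1, the cyclin of mitotic entry, was called lower (-1.19 ± 0.10), beside 17% and 6.34% of all genes. With the replicate number as a block CCNA2 became the second lower call, and the same count of 2 came without DMSO replicate 2, DMSO replicate 3 or combination replicate 3, while library totals alone gave 11 higher and 0 lower. CDKN1C, which encodes p57, had 3 counts in the 3 DMSO libraries together and 86 in the 3 combination libraries, a ratio of 26.5 with a 95% exact counting interval of 8.76 to 131, and CDKN1B, which encodes p27, had a log2 fold change of 0.19 ± 0.11 with overlapping groups. The CDKN1C ratio, like the other count ratios and floor-based folds below, is scaled by library totals and not by TMM.

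No gene of the 36 in the DNA replication list was called in either direction, with a median of 0.21 and a range of -0.52 to 0.95. Smaller shifts passed the false discovery rate without the fold threshold in 15 genes upwards and 3 downwards. Licensing and origin genes were among them, with CDC6 at 0.83 ± 0.12, CDT1 at 0.70 ± 0.14 and the polymerase subunit POLD3 at 0.95 ± 0.10, while the helicase subunits MCM6 and MCM7 were at -0.52 ± 0.10 and -0.40 ± 0.11. With library totals alone 3 were called higher. Some mitosis genes fell. CDC20, which switches on the anaphase-promoting complex, stood at 231, 229.9 and 235 CPM in DMSO and at 52.5, 43.8 and 52 CPM with the combination (-2.21 ± 0.11, adjusted p = 1.14e-06). Its DMSO values lay close together and far above the combination. The mitotic kinase PLK1 went from 181, 183 and 174 CPM to 56.6, 53.3 and 50.3 CPM (-1.73 ± 0.10), again without overlap. In all 7 of 32 mitosis genes were called lower and 0 higher, among them CENPF (-1.29), KIF20A (-1.23) and BUB1 (-1.19), with a median of -0.43, and with library totals alone the 7 became 3. Not every gene of mitosis fell: NDC80 was at 0.50 ± 0.12 and CDK1 at 0.01 ± 0.12.

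Replication-dependent histone genes, whose mRNAs are made in S phase and normally lack a poly(A) tail, were called lower in 15 of 30 tested cases and higher in 0, while 21 of the 51 listed did not pass the count filter. The median was -1.46 with a range up to 0.56, and 11 to 17 were called lower with a library left out. The replicate block gave 18 lower calls and library totals alone 13. H2BC12 was at 11.8, 8.38 and 9.79 CPM in DMSO and 1.82, 1.72 and 1.98 CPM with the combination (-2.42 ± 0.22, adjusted p = 2.01e-05), with no overlap. Cytarabine alone and daunorubicin alone had H2BC12 at similar levels (2.28, 1.65 and 2.16 and 2.14, 1.45 and 3.05 CPM). H2BC12 had the highest mean in DMSO of the members called lower. The list as a whole summed to 53.9 to 76.3 CPM in the DMSO libraries and 15.7 to 38.6 CPM in the combination libraries. Its members share near-identical coding sequences, so reads may be split among copies. Whether these low values cover the bulk of histone mRNA was not tested. Of 39 genes of double-strand break and crosslink repair, all tested, FANCG (1.23 ± 0.12) and EXO1 (1.13 ± 0.10) were called higher and XRCC6 (-1.16 ± 0.14) and XRCC4 (-1.01 ± 0.23) lower, shares below the 17% and 6.34% of all genes. XRCC6 and XRCC5, which form the Ku ring that binds broken DNA ends, were both down at the false discovery rate (XRCC5 -0.87 ± 0.13), and BRCA1 and FANCI were up at it by 0.76 and 0.82. The XRCC4 call was lost without DMSO replicate 1 or combination replicate 2, the lower count was 1 or 3 in 4 of the 6 fits with a library left out, and with library totals alone it was 0.

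The genes that build ribosomes fell together. Ribosome biogenesis takes place in the nucleolus, where RNA polymerase I makes the ribosomal RNA and a large set of factors cuts, modifies and folds it. All 38 tested genes of the list had every combination library below every DMSO library, 35 of them were called lower, and the median was -1.41. That is to be read against 6.34% of all genes called lower and 30.1% below without overlap. Leaving out each library in turn left 31 to 35 calls, and library totals alone left 27. NCL (nucleolin), an abundant nucleolar protein gene, went from 2223, 2205 and 2295 CPM to 537, 429 and 707 CPM (-1.99 ± 0.17, adjusted p = 1.33e-05). NPM1 (nucleophosmin) went from 3157, 2595 and 2836 CPM to 1189, 875 and 1234 CPM (-1.37 ± 0.15). WDR43, an early processing factor, fell most in the list, from 259, 241 and 253 CPM to 51.6, 39.1 and 61.3 CPM (-2.29 ± 0.16). Of 26 tested genes of RNA polymerases I and III and their factors 8 were called lower and 0 higher, with a median of -0.75. These included the polymerase III subunit POLR3G, at 25.2, 28.8 and 24.7 CPM in DMSO and 4.89, 2.56 and 6.54 CPM with the combination (-2.48 ± 0.28), and the polymerase I subunits POLR1A (-1.39) and POLR1B (-1.84), and with library totals alone 5 were called. The cytosolic ribosomal protein genes themselves were not called in any of 44 cases (range -0.82 to 0.20), and their median of -0.18 turned to 0.06 with library totals alone.

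MYC, a transcription factor known to act on many ribosome biogenesis genes, fell as well. Its part in their fall was not tested. It was at 573, 807 and 713 CPM with DMSO, 278, 322 and 314 CPM with cytarabine, 540.1, 675 and 885 CPM with daunorubicin and 213, 125 and 179 CPM with the combination (-2.00 ± 0.20 against DMSO, adjusted p = 3.03e-05). The combination libraries were the lowest 3 of the 12. The antagonists of MYC that share its partner MAX rose in part: MXD1 (1.59 ± 0.12), MXD3 (1.66 ± 0.20) and MXD4 (1.24 ± 0.15) were called higher, MAX was at -0.11 ± 0.11, and MNT at 0.21 ± 0.22.

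MYC and MAX bind the E-box CACGTG, which reads the same on both strands. In windows from 250 bases before to 50 after the annotated start, taken from RefSeq for 10305 of the genes tested, it occurs in 10.3% of promoters. It occurs in 18.5% of the 655 promoters of genes called lower, in 6.80% of the 1661 of genes called higher, in 12 of 33 for ribosome biogenesis, in 4 of 28 for the chaperones and in 6 of 23 for the AP-1 and immediate early genes, of which none were called lower. Over all 27305 RefSeq promoters, of tested genes or not, the E-box occurs in 7.43%. These sets were not matched for level in DMSO, and 3.03% of genes under 1 CPM and 13.7% at 100 CPM or more were called lower. A match is a description of the letters and not a bound site. The promoters of WDR43 and UTP20 are shown with the E-box in capitals. Among called ribosome biogenesis genes with an E-box, and with the chromosome of MYC left out, their expression fell most. The E-box is at 3 bases after the start in WDR43 (chr2:28894417-28894716, plus strand, GRCh38.p14) and at -10 from the start in UTP20 (chr12:101279855-101280154, plus strand). UTP20 is a factor of the small ribosomal subunit and was at 125, 164 and 169 CPM in DMSO and 31.8, 29 and 53.3 CPM with the combination (-1.99 ± 0.22).
WDR43: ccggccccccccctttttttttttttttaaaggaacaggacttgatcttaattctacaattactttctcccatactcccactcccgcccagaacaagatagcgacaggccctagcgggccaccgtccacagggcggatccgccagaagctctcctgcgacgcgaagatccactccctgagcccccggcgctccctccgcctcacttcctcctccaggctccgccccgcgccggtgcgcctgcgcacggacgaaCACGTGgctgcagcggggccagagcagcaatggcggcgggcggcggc
UTP20: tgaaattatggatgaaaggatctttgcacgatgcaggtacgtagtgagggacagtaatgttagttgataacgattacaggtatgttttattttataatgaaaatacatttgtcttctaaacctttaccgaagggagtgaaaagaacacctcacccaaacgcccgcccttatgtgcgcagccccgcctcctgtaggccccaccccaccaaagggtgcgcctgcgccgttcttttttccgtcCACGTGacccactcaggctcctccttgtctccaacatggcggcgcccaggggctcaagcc

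Chaperone genes, whose products fold newly made proteins, fell in a similar range. Of 32 tested genes 22 were called lower and 0 higher, with a median of -1.24, and with library totals alone 16 were called. The endoplasmic reticulum chaperone HSP90B1 was at 1000.0, 969 and 952 CPM in DMSO and 277, 223 and 344 CPM with the combination (-1.77 ± 0.15, adjusted p = 1.44e-05). The cytosolic HSPA8, HSP90AA1 and HSP90AB1 fell (-1.61, -1.42 and -1.40), as did the mitochondrial pair HSPE1 and HSPD1 (-1.62 and -1.16; the HSPD1 call was lost without combination replicate 2), and 4 subunits of the chaperonin ring (CCT3, CCT4, CCT5 and CCT6A) were called lower along with its subunit TCP1. Of 30 proteasome subunits 5 were called lower, beside 6.34% of all genes, led by PSMD1 (-1.37 ± 0.11). That count depended on the library left out: it was 1 without combination replicate 2, 3 without DMSO replicate 1, 7 without DMSO replicate 2 or combination replicate 3 and 1 with library totals alone, and the median was -0.66. VARS1 (-1.80), EPRS1 (-1.12) and FARSB (-1.04, lost without combination replicate 2) were the called members of 20 aminoacyl-tRNA synthetases, and with library totals alone 1 was called.

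Genes of cholesterol and fatty acid synthesis were lower in 11 of 24 cases and higher in 0 (10 to 14 lower with a library left out), with a median of -0.93, and 10 were called lower with library totals alone. FASN, the fatty acid synthase, was at 1081, 1353 and 1354 CPM in DMSO and 275, 202 and 330.3 CPM with the combination (-2.21 ± 0.18, adjusted p = 1.14e-05), and cytarabine alone lay between, at 369, 515 and 462 CPM. SCD, which makes unsaturated fatty acids, fell by 1.39. The sterol pathway genes SQLE and HMGCS1 fell too (-1.53 and -1.47), and INSIG1, a target of sterol-sensing factors, fell likewise (-1.41). The transferrin receptor gene TFRC, which brings iron into the cell, fell by 1.37, and FTH1, which stores iron, rose by 1.48.

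Purine synthesis genes were among those that fell, while RRM2 and TK1, which supply deoxynucleotides, rose. PPAT, the first committed enzyme of purine synthesis, fell by 1.32, and PFAS (-1.36), ADSL (-1.18) and DHODH of the pyrimidine route (-1.73) fell with it. In the opposite direction, RRM2, the subunit that limits ribonucleotide reductase, went from 691, 609 and 602 CPM to 1519.7, 1491 and 1523 CPM (1.27 ± 0.11, adjusted p = 1.29e-05). Thymidine kinase, TK1, went from 156, 125 and 134 CPM to 433, 410.2 and 415 CPM (1.61 ± 0.11). The groups did not overlap for RRM2 or TK1. In all 2 of 28 nucleotide synthesis genes were called higher and 6 lower, beside 17% and 6.34% of all genes.

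Of 16 tested genes of cytarabine uptake, activation and inactivation RRM2 and CDA were called higher and SLC29A2 and NME1 lower, beside 17% and 6.34% of all genes, and with library totals alone 4 were called higher and the list median of -0.17 turned to 0.07. DCK, the kinase that activates cytarabine, was at 101, 94 and 91.1 CPM in DMSO and 111, 121 and 124 CPM with the combination, a rise below the fold threshold (0.33 ± 0.10, adjusted p = 0.0181). The nucleoside carriers SLC29A1 and SLC29A2 were at -0.71 ± 0.13 and -1.26 ± 0.17, of which the second was called. CDA, the deaminase that inactivates cytarabine, was called higher (4.51 ± 0.75), but at 0, 0.0348 and 0.103 CPM in DMSO and 1.07, 1.77 and 0.598 CPM with the combination its level stayed low. SAMHD1, which breaks down the active triphosphate, was at 0.49 ± 0.14. The target of daunorubicin, TOP2A, was at 694, 669 and 627 CPM in DMSO and 324, 430.2 and 473 CPM with the combination (-0.68 ± 0.14, adjusted p = 0.00235), and TOP2B and TOP1 were at -0.78 ± 0.11 and -0.95 ± 0.11. All 3 passed the false discovery rate and not the fold threshold. The efflux pump gene ABCB1 had no counts in any of the 12 libraries, and ABCC1 was at 0.22 ± 0.13.

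Immediate early genes and the AP-1 factors rose widely. These genes respond to stress and growth signals within minutes, and AP-1 pairs a JUN with a FOS or ATF protein. Of 31 tested genes 23 were called higher and 0 lower, with a median of 1.86. JUN was at 5.15, 7.96 and 4.46 CPM in DMSO and 555, 238 and 239 CPM with the combination (5.89 ± 0.39, adjusted p = 5.18e-06), with replicate 1 the highest. ATF3 went from 3.78, 5.04 and 2.58 CPM to 242, 147 and 109 CPM (5.46 ± 0.34), again highest in replicate 1. Cytarabine replicate 2 stood low for both, with JUN at 469, 86.2 and 270.4 CPM and ATF3 at 169.5, 40.5 and 113 CPM in cytarabine replicates 1, 2 and 3. EGR1, FOS and KLF2 rose by 4.17, 4.04 and 4.87, and FOSL2 by 2.33. Some members were not called, with FOSL1 at -0.26 ± 0.30, BATF at -0.31 ± 0.18 and MAFK at -0.98 ± 0.14, and MAFK was called lower without DMSO replicate 2, without combination replicate 1 and without combination replicate 3.

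NF-kB is held in the cytoplasm by inhibitors whose genes it induces in turn. Of 20 tested genes of its subunits and feedback loop 13 were called higher and 0 lower, with a median of 2.36, and the 13 stood with each library left out. The subunit genes NFKB2 and RELB of the noncanonical branch rose by 3.90 and 2.65, while RELA (0.15 ± 0.10), REL (0.63 ± 0.29) and NFKB1 (0.70 ± 0.15) were not called. The feedback genes NFKBIA, TNFAIP3 and NFKBIZ rose by 2.56, 3.06 and 6.21, of which NFKBIA encodes a cytoplasmic inhibitor. NFKBIZ was at 0.229, 0.452 and 0.0343 CPM in DMSO and 21.4, 23.7 and 8.09 CPM with the combination (adjusted p = 2.58e-05). ICAM1, the adhesion molecule that leukocyte integrins bind, went from 1.57, 1.43 and 0.996 CPM to 63.5, 121 and 60.6 CPM (5.96 ± 0.33, adjusted p = 2.22e-06), highest in replicate 2. TNFAIP2, another NF-kB target, was at 26.5, 31.9 and 28.7 CPM in DMSO and 322, 408 and 359.6 CPM with the combination (3.66 ± 0.13).

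Several chemokine ligands, which draw leukocytes along a gradient, rose. Of 24 ligands 12 passed the filter, some of them only through their level with the combination, 10 of the 12 were called higher and 0 lower, and their median was 4.10. CXCL8 (interleukin 8) was at 9.54, 9.01 and 1.51 CPM in DMSO and 801, 534 and 364 CPM with the combination (6.43 ± 0.57, adjusted p = 1.82e-05). The groups lay far apart, and replicate 3 was the lowest of both. CCL2 went from 2.56, 1.53 and 2.68 CPM to 136, 157 and 152 CPM (6.06 ± 0.20) and was more even between libraries. CCL4 was at 0.573, 0.209 and 0.137 CPM and 44.3, 15.5 and 41.9 CPM (6.82 ± 0.54), and CCL5 rose by 3.31 and CCL20 by 3.01. CXCL10 had 1 count in the 3 DMSO libraries together and 635 in the 3 combination libraries, a ratio of 586 with a 95% exact counting interval of 105 to 23184, which covers counting error only. CXCL2 (0.79 ± 0.58) and CCL22 (1.85 ± 0.75) were tested and not called.

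The letters GGNNTTTCC, a core of the NF-kB motif, were searched on both strands of the same promoter windows. They occur in 6.77% of promoters of tested genes, in 8.07% of those of genes called higher and in 6.56% of those of genes called lower, in 5 of 8 chemokine ligand promoters and in 9 of 18 of the NF-kB list. The AP-1 motif TGANTCA, searched on both strands, occurs in 4.40% of promoters of tested genes, in 7.04% of those of genes called higher and in 3.05% of those of genes called lower, in 1 of 23 of the AP-1 list and in 0 of 18 of the NF-kB list. Over all 27305 RefSeq promoters, of tested genes or not, the AP-1 motif occurs in 7.76% and the NF-kB core in 6.26%. Whether these shares go with the level of a gene in DMSO was not tested. The promoters of CXCL8, ICAM1 and NFKBIZ are shown because each rose by over 5 on the log2 scale and holds the NF-kB core, with matches of these 2 motifs and of the TATA box (TATAAA, searched on the gene's strand) in capitals. In CXCL8 (chr4:73740319-73740618, plus strand, GRCh38.p14) the capitals mark the AP-1 motif at -137, the NF-kB core at -91 and TATAAA at -31 from the start. In ICAM1 (chr19:10270870-10271169, plus strand) and NFKBIZ (chr3:101827740-101828039, plus strand) they mark the NF-kB core at -186 and -222 and TATAAA at -30 and -29, and TGANTCA was not found in either window.
CXCL8: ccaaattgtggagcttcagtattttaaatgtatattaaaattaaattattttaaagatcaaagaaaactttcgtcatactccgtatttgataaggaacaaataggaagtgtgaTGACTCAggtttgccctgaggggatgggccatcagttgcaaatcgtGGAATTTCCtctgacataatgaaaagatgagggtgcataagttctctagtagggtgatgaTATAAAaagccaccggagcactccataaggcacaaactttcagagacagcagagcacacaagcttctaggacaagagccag
ICAM1: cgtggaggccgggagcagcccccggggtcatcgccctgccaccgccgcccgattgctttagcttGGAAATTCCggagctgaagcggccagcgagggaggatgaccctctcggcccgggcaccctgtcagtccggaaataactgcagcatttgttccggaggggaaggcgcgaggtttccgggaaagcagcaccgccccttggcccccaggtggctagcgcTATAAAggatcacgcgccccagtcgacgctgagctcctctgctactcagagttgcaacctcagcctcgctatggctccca
NFKBIZ: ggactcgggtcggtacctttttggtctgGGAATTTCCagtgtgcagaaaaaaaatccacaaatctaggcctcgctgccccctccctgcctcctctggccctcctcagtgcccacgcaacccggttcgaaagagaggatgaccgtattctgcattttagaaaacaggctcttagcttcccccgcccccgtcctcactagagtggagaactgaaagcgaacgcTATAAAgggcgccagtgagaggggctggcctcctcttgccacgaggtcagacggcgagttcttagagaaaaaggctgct

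Cytokine genes rose in 10 of 16 tested cases and fell in 0 (median 1.95). IL1A and IL1B, 2 forms of interleukin 1, rose by 5.63 and 3.55, and IL1RN, which blocks their receptor, by 5.26. LIF and TNFSF9 rose by 3.02 and 3.26, and LTB, in the histocompatibility region, by 2.84, while TGFB1 was at 0.19 ± 0.10 and VEGFA at 0.61 ± 0.12. IL6, IL10, IL12B, CSF2 and TNF did not pass the count filter. Interferon-stimulated genes were called higher in 20 of 29 tested cases and lower in 0 (18 to 22 higher with a library left out), with a median of 1.61. OAS3, which senses double-stranded RNA, went from 5.08, 5.84 and 5.94 CPM to 52.3, 86.7 and 78.4 CPM (3.70 ± 0.20, adjusted p = 2.06e-06), and the GTPase gene GBP2 from 1.49, 0.696 and 1.1 CPM to 26.6, 32.7 and 31.8 CPM (4.81 ± 0.25). MX2, USP18 and IFI6 rose by 2.56, 2.36 and 2.32. Several classic members were not called: IFIT1 was at -0.65 ± 0.56, IFIT3 at 0.51 ± 0.35 and ISG15 at 0.53 ± 0.21. Among the APOBEC3 cytidine deaminases, which edit cytosine in single-stranded DNA, 4 of 5 tested were called higher. APOBEC3B, the most abundant of those called, rose from 57.5 ± 7.97 CPM to 138 ± 1.35 CPM (mean ± SD, n = 3; 1.28 ± 0.12), and APOBEC3G was at 0.344, 0.174 and 0 CPM in DMSO and 6.2, 6.21 and 4.97 CPM with the combination.

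**Figure D3:**
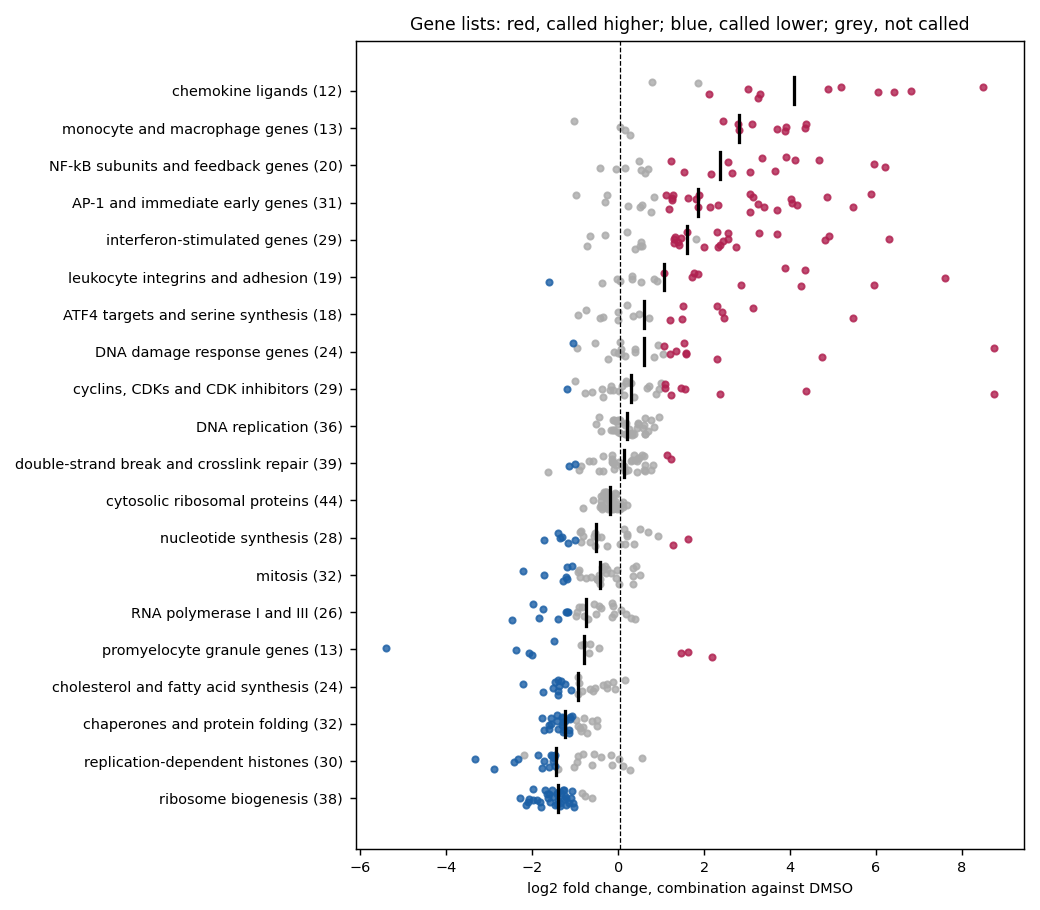
Log2 fold change of the combination against DMSO (horizontal axis) of each tested gene in 20 lists, with the number tested in brackets, red for called higher, blue for called lower and grey for not called; short black bars are list medians and the dashed line is the median of all genes. Chemokine, monocyte and NF-kB genes lie to the right (medians 4.10, 2.82 and 2.36), and ribosome biogenesis, histone and chaperone genes to the left (-1.41, -1.46 and -1.24).

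Some genes that mark HL60 as promyelocytes fell, and fewer rose. MPO, the peroxidase of primary granules, was at 3129, 3927 and 3619.9 CPM in DMSO and 702, 476 and 848 CPM with the combination (-2.38 ± 0.20, adjusted p = 1.22e-05), and daunorubicin alone had it at 2519, 2746 and 4016 CPM. The progenitor factor MYB fell by 1.20, CEBPA was at -0.99 ± 0.10 and SPI1 (PU.1), the myeloid master factor, at -0.11 ± 0.13. Of 11 tested identity genes 3 were called lower and 2 higher, beside 6.34% and 17% of all genes, so that the higher count was near the share of all genes. The higher calls were LYZ (lysozyme, 1.45 ± 0.24) and CD38 (1.73 ± 0.50), of which CD38 was lost without combination replicate 2. Without DMSO replicate 1, 5 identity genes were called lower. PRTN3, the proteinase of the same granules, had the largest fall of any named gene, from 1103, 2045 and 1491 CPM to 55.8, 0 and 52.6 CPM (-5.41 ± 1.18, adjusted p = 0.00315), and was at 0 in 1 library. Its value is uncertain: its neighbours AZU1 (no counts in any of the 12 libraries) and ELANE (0 to 14 counts there) were nearly without reads, and whether reads of this cluster lie on the transcripts left out of the matching, which held 3.99% to 4.44% of counts, was not tested. The eosinophil granule gene PRG2 (-1.49 ± 0.34), RNASE3 (-2.00 ± 0.33) and MS4A3 (-2.07 ± 0.37) fell as well. In the granule list as a whole 5 of 13 tested genes were called lower and 3 higher, beside 6.34% and 17% of all genes.

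Several markers of later myeloid stages rose from low levels. Of 26 monocyte and macrophage genes 13 passed the filter and 9 of them were called higher and 0 lower, with a median of 2.82. The other 4 were not called, and the range was -1.04 to 4.36. In 1 of the 13 every combination library was below every DMSO library. The list summed to 159 to 188 CPM in DMSO and 250.2 to 404 CPM with the combination, while CD14 stayed under the filter and MRC1, MSR1 and IRF8 had no counts in these 6 libraries. The integrin gene ITGAM (CD11b), a marker of myeloid maturation, was at 5.42, 2.78 and 2.4 CPM in DMSO and 42.3, 75.9 and 35.4 CPM with the combination (3.88 ± 0.36, adjusted p = 2.34e-05), with cytarabine at 22.3, 41 and 14.5 CPM and daunorubicin at 12, 19.7 and 5.2 CPM. CD86, a ligand that costimulates T cells, went from 1.07, 0.8 and 0.79 CPM to 18.9, 18.1 and 17.1 CPM (4.36 ± 0.21). ITGAX, FCGR2A, CSF1R and CD68 rose by 4.34, 2.44, 3.90 and 2.82. S100A9 was at 6.34, 5.6 and 5.25 CPM in DMSO and 27.4, 58.6 and 31.2 CPM with the combination (2.79 ± 0.28). The phagocyte oxidase gene CYBB rose by 3.13, and NCF1, which has near-identical pseudogene copies, was at 54.5, 57.2 and 31 CPM and 342, 707 and 238 CPM (3.19 ± 0.38). Of 11 neutrophil secondary and tertiary granule genes 3 passed the filter, CHI3L1 (4.08 ± 1.26 CPM in DMSO and 36.5 ± 8.15 CPM with the combination, mean ± SD, n = 3; 3.17 ± 0.25), MMP9 (4.80 ± 0.71) and CAMP (2.60 ± 0.48), of which MMP9 and CAMP were under 1 CPM in DMSO, a level at which the filter favours genes that rose. LCN2, MMP8, CEACAM8 and CRISP3 had no counts in these 6 libraries. The summed level of that list went from 3.51 to 5.46 CPM in the DMSO libraries to 35.1 to 61.7 CPM in the combination libraries.

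Some markers of B, T and NK cells rose, at low levels. CD79A (2.13 ± 0.21) and PAX5 (1.66 ± 0.27), both B cell genes, were called higher, as was CD79B (5.39 ± 0.92) from 1 count in DMSO, with a summed level of the 9 listed genes of 3.59 to 3.96 CPM in DMSO and 14.8 to 16 CPM with the combination, while MS4A1 and VPREB1 were at 0. Of 13 T and NK cell markers NKG7 (2.60 ± 0.18), CD3E (5.19 ± 0.83) and GNLY (2.50 ± 0.75) were called higher, the last 2 from 2 and 7 counts in DMSO, with sums of 4.81 to 6.03 CPM and 25.8 to 38.8 CPM, and CD3D, CD3G and CD8B were at 0. GNLY lost its call without combination replicate 2. COL1A1 was the tested gene of 11 epithelial and fibroblast markers (4.10 ± 0.47), with sums of 0.0382 to 0.417 CPM in DMSO and 2.74 to 2.91 CPM with the combination, and EPCAM, KRT19 and COL3A1 were at 0. Of 14 erythroid markers 3 were tested, and KLF1 was called lower (-1.43 ± 0.44, lost without DMSO replicate 2, DMSO replicate 3, combination replicate 2 or combination replicate 3), with sums of 38.4 to 44.5 CPM and 32.8 to 41.1 CPM and no globin gene tested. Of 8 megakaryocyte markers ITGA2B was called higher (3.02 ± 0.48) and TUBB1 lower (-1.35 ± 0.44, lost without DMSO replicate 1, DMSO replicate 3 or combination replicate 2), with sums of 3.13 to 4.16 CPM and 4.34 to 12.3 CPM and PF4, PPBP and GP9 at 0. CD79B, CD3E, GNLY and COL1A1 passed the filter through the combination group, so their direction is not independent of it. The part of other cells in the results was not tested, and in each of these lists defining markers had no counts.

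Of 19 tested integrins and adhesion molecules, which bind other cells, 10 were called higher (9 to 11 with a library left out) and 1 lower, ITGA4, which fell by 1.61. ITGB7 rose by 4.25, and ITGB3 had no counts in the 3 DMSO libraries and 81 in the 3 combination libraries, at least 24.9-fold higher when set against a floor of 3 counts over the DMSO group. Of 9 tested costimulatory and checkpoint ligands 6 were called higher, including VSIR (2.07), NECTIN2 (3.41) and TNFSF4 (2.67). In antigen presentation HLA-B (1.33 ± 0.20) and TAP1 (1.35 ± 0.17) were called higher of 11 tested genes, near the 17% of all genes, B2M was at 0.06 ± 0.14, and the values of genes in the histocompatibility region are uncertain because alternate haplotype transcripts can take their reads.

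Genes of the mitochondrial death pathway rose in the BH3-only members BMF, BBC3 and PMAIP1. BMF was at 7.41, 7.44 and 8.24 CPM in DMSO and 82.2, 88.7 and 92.1 CPM with the combination (3.52 ± 0.12, adjusted p = 2.26e-07), while cytarabine alone had 70.5, 60.1 and 81.8 CPM and daunorubicin alone 26.1, 27.9 and 17.5 CPM. BBC3 was at 9.73, 6.23 and 5.01 CPM and 41, 31.1 and 30.6 CPM. The survival gene BCL2A1, an NF-kB target, rose by 3.95, while MCL1 was at 0.01 ± 0.10, BCL2L1 at 0.40 ± 0.13 and BCL2 at -0.57 ± 0.15. In all 4 of 15 tested BCL2 family genes were called higher and 0 lower, beside 17% and 6.34% of all genes. The range was -1 to 3.95, and 2 of the 15 were down at the false discovery rate without a call. Of 19 tested death receptor and caspase genes 6 were called higher (4 to 6 with a library left out) and 0 lower, beside the same shares of all genes. The higher calls included the tumor necrosis factor receptor TNFRSF1B, from 42.8, 49.4 and 43.6 CPM to 137, 187 and 139 CPM (1.78 ± 0.14), and the decoy receptor TNFRSF10D (1.22 ± 0.29). CASP9 rose by 1.02 (lost without DMSO replicate 2, DMSO replicate 3 or combination replicate 3), and CASP8 was at 0.42 ± 0.13.

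Genes of the integrated stress response, which act downstream of the factor ATF4, rose in 8 of 18 tested cases and fell in 0. DDIT3, which encodes CHOP, rose by 3.14, CHAC1 by 2.29, DDIT4 by 2.41 and TRIB3 by 1.48. The amino acid synthesis genes of the list were not called, with ASNS at -0.01 ± 0.14 and PHGDH at 0.21 ± 0.13, and ATF4 itself was at -0.74 ± 0.13. HMOX1, the heme oxygenase, rose by 4.23 from 0.191 ± 0.0755 CPM (mean ± SD, n = 3), while known targets of the oxidative stress factor NRF2 went both ways, with SRXN1 at -1.15 ± 0.11, GCLM at -0.69 ± 0.12 and NQO1 at 0.89 ± 0.13. Of 26 tested genes of oxidative stress, heme and iron 3 were called higher and 2 lower, beside 17% and 6.34% of all genes, and with library totals alone 7 and 1. The mitochondrial mRNAs were not called in any of 13 cases (range -0.34 to 0.36), while the mitochondrial ribosomal RNA MT-RNR2 was called higher (1.12 ± 0.16, lost without combination replicate 2) and had the largest gain in TPM of all called genes.

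By fold among protein-coding genes of at least 5 CPM, the rises outside these lists included KLHDC7B, from 1.53, 0.209 and 0.961 CPM to 209, 168 and 86.5 CPM (7.46 ± 0.49), SH3TC1 (6.06 ± 0.38), SPSB1 (6.13 ± 0.36) and RGS3, a regulator of G protein signaling (6.03 ± 0.37). TREM1, a receptor that amplifies myeloid inflammation, had 2 counts in the DMSO libraries together and 567 in the combination libraries, a ratio of 262 with a 95% exact counting interval of 72.1 to 2166. CD69, an early activation marker, had 3 counts and 1271, a ratio of 391 with an interval of 133 to 1899. HNRNPA1L2 had no counts in DMSO, but it is a near copy of HNRNPA1 and its reads may be misassigned. Among the falls, the nucleotide receptor gene P2RY2 was at 261, 293 and 362 CPM in DMSO and 33.8, 34.4 and 55.1 CPM with the combination (-2.88 ± 0.21, adjusted p = 6.69e-06), PLD6, a mitochondrial phospholipase, at 73.8, 62.2 and 60.2 and 13.1, 5.45 and 8.18 CPM (-2.86 ± 0.27), and the helicase gene PIF1 at 29.4, 33.4 and 22.6 and 5.56, 3.7 and 3.56 CPM (-2.72 ± 0.22). FJX1 (-2.74), DDN (-2.68), OPN3 (-2.57), MINAR1 (-2.98), HSD11B2 (-2.49) and IGLL1 (-2.63), which encodes a surrogate light chain, fell too. UNC5C fell by 2.95, a call lost without combination replicate 2. ZBTB12 (-3.47 ± 0.45) lies in the histocompatibility region, and SENP3-EIF4A1 (-3.06 ± 0.32) and PDCD6-AHRR (-3.04 ± 0.52) are readthrough genes that share exons with their neighbours, so these 3 values are uncertain. By the gain in TPM, a level per transcript length, FTH1, CXCL8, S100A4, DDIT4, RRM2, CCL2, ALOX5AP and PCLAF stood out after MT-RNR2, where S100A4 went from 131 ± 16.7 to 636 ± 127 TPM (mean ± SD, n = 3). PCLAF overlaps ENSG00000259316, named by the same rule, and their calls were lost without DMSO replicate 2, DMSO replicate 3 or combination replicate 1 and without DMSO replicate 2 or combination replicate 1, in this order. By the loss in TPM the prothymosin gene PTMA led (3863 ± 138 to 1878 ± 453 TPM), followed by PRTN3, NPM1, MPO, PRG2, CALR, HSP90AB1, NACA, HSPE1 and HSPA8.

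Among the 5 long noncoding RNAs with the largest falls, 3 host small RNAs. SNHG4, which hosts a small nucleolar RNA, was at 119, 114 and 111 CPM in DMSO and 22.3, 10.4 and 15 CPM with the combination (-2.83 ± 0.23, adjusted p = 1.14e-05). MIR17HG, which hosts the miR-17 to miR-92 cluster and is a known MYC target, was at 27.1, 34 and 17.5 CPM and 5.66, 2.79 and 4.47 CPM (-2.59 ± 0.30), SNHG26, a host of a small nucleolar RNA, was at -2.21 ± 0.25, LINC00641 at -2.34 ± 0.21 and AATBC at -2.42 ± 0.38. The rises were from under 1 CPM: MIR3142HG, the host of miR-146a and miR-3142, went from 0.229, 0 and 0.0687 CPM to 6.76, 7.22 and 5.35 CPM (6.03 ± 0.56), and LINC01686 (5.32 ± 0.40), ROCK1P1 (5.43 ± 0.40, uncertain because it is a near copy of ROCK1), LNCATV (4.85 ± 0.45) and ENSG00000254873 (6.64 ± 0.66) rose likewise.

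The combination was also compared directly with each single drug, which uses the same 3 combination libraries. Against cytarabine alone, 0 of 15131 genes were called in either direction by edgeR, and the unadjusted p was under 0.05 for 1098 genes (7.26%). With DESeq2 the counts were 9 higher and 5 lower, and with limma voom 2 and 0. Libraries with the same replicate number varied together in these groups, and with the number as a block 41 genes were called higher (0.271%) and 16 lower (0.106%). CDKN1A was among the blocked calls, at 44.6, 36.9 and 43 CPM with cytarabine and 95.8, 114 and 68.4 CPM with the combination (log2 fold change 1.13, adjusted p = 0.0145 with the block and 0.53 without). Of the 9 called monocyte genes 5 were blocked calls, namely ITGAM (1.02), ITGAX (1.00), CD68 (1.17), S100A8 (1.36) and S100A9 (1.14), and each was higher with the combination in all 3 pairs of same-numbered libraries. These genes, and PLD6 (-1.18) and TERT (-1.22), the catalytic subunit of telomerase, both lower, were picked after their values were seen. CXCL8, CCL2 and JUN were at 0.16 ± 0.45, 0.18 ± 0.22 and 0.31 ± 0.53 against cytarabine, and for each of these 3 genes the libraries of both groups overlapped. MPO (-0.92 ± 0.21) and MYC (-0.83 ± 0.18) had all 3 combination libraries below all 3 cytarabine libraries, with an adjusted p of 0.62 and 0.62 without the block. With it they were at -0.94 and -0.86 (adjusted p = 0.0146 and 0.0219), short of the fold threshold. TNF, also picked after its values were seen and in the histocompatibility region, where values are uncertain, was the blocked call with the largest fall (-6.17, adjusted p = 0.0047), at 53.7, 47.9 and 15.2 CPM with cytarabine and 1.92, 0 and 0 CPM with the combination. The largest blocked rises were KCTD11 (8.59) and DUXAP8 (7.87), each at 0 CPM in all 3 cytarabine libraries and under 2 CPM with the combination. FAM83H (5.15) came next, at 0.587, 1.62 and 0 CPM with cytarabine and 35.1, 35 and 3.49 CPM with the combination. The list median against cytarabine was -0.41 for ribosome biogenesis, -0.24 for chaperones and 0.63 for monocyte genes, beside 0.00 for all genes.

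Against daunorubicin alone, 984 of 14937 genes were called higher (6.59%) and 389 lower (2.60%). CDKN1A was 5.56 ± 0.33 higher on the log2 scale than with daunorubicin (adjusted p = 5.25e-05), CXCL8 5.85 ± 0.54 and CCL2 4.41 ± 0.38, and all 3 genes separated every combination library from every daunorubicin library. CXCL10 had no counts with daunorubicin and was at least 199-fold higher with the combination against a floor of 3 counts over the group. Of the NF-kB list 13 were called higher, of the AP-1 list 21, of the chemokines 10 and of the interferon-stimulated genes 11. Lower calls included 18 of 38 ribosome biogenesis genes (median -0.95), 10 of 24 cholesterol and fatty acid genes (median -0.94) and 5 of 32 chaperones. MYC was -2.02 ± 0.22 and MPO -2.19 ± 0.23, with no overlap of libraries. Of the mitosis list 0 of 32 genes were called, of the histone list 2 were called higher and 0 lower, and the medians were 0.14 and 0.48. PLK1 (-0.54 ± 0.11) and CDC20 (-0.72 ± 0.17) were lower at the false discovery rate and below the fold threshold. TOP2A was at 0.01 ± 0.15, with overlapping groups. PRTN3, IGLL1, UNC5C, DDN and the chemokine receptor gene CCR8 had the largest falls against daunorubicin by the rule on named genes (-4.69 ± 1.18, -3.24 ± 0.58, -2.85 ± 0.77, -2.75 ± 0.39 and -2.67 ± 0.30), and CD69 and CCL4 rose by 6.69 ± 0.65 and 6.68 ± 0.74. ZBTB22, at 0, 0 and 0 CPM with daunorubicin and 7.51, 8.61 and 6.8 CPM with the combination, also varied between 0 and 9.81 CPM among the DMSO libraries and lies in the histocompatibility region.

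**Figure D4:**
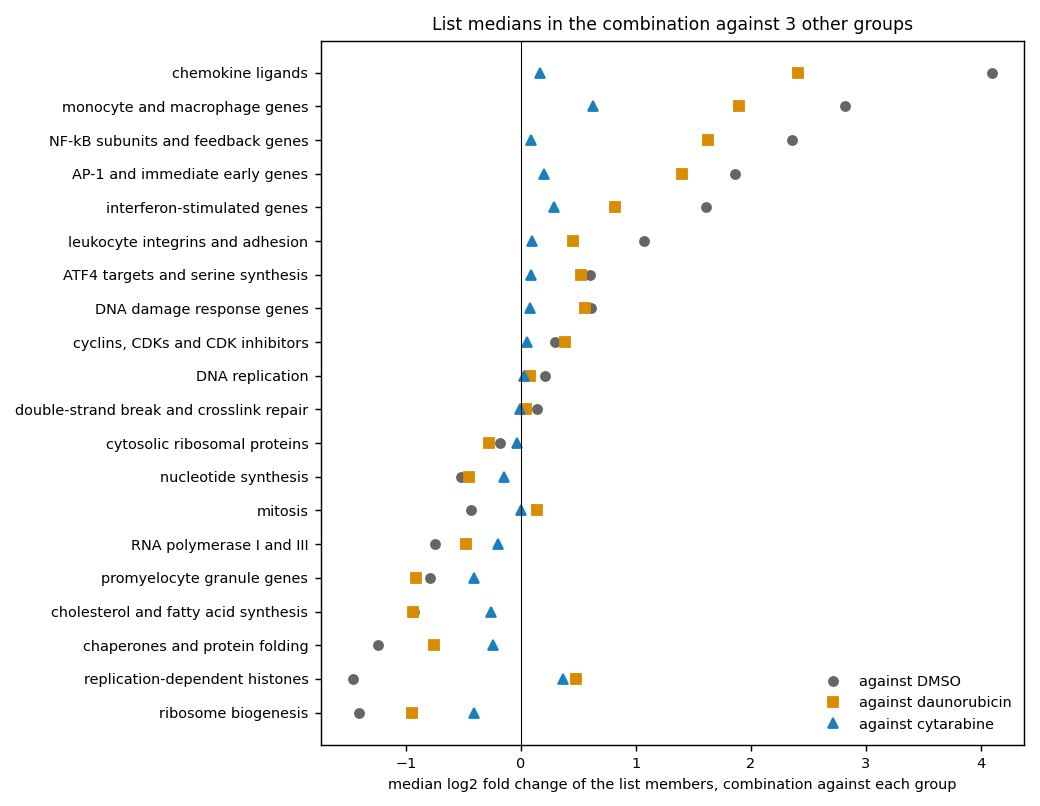
Median log2 fold change (horizontal axis) of the members of 20 gene lists in the combination against DMSO (grey circles), against daunorubicin (orange squares) and against cytarabine (blue triangles); the 3 comparisons share the combination libraries. Against cytarabine the list medians lie between -0.41 (ribosome biogenesis) and 0.63 (monocyte genes), while against daunorubicin many lie between 0 and the value against DMSO, as for chemokines (2.41), and histone genes lie above 0 (0.48).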

How the data were processed

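Total RNA libraries of HL60 cells were sequenced with paired ends. The authors quantified transcripts with Salmon 1.8.0 (GRCh38, per the submitters' notes, which also name FastQC 0.11.9 and edgeR 3.38.1) and deposited per library the estimated counts and TPM of each transcript; the annotation release and any removal of ribosomal RNA are not stated in what was read here. Of 252199 transcripts, 235378 were matched to GENCODE 44 and summed to 59041 genes; the other 16821 held 3.99% to 4.44% of counts and were left out. Counts were rounded, filtered (filterByExpr, count minimum 10, total minimum 15), scaled by TMM and tested with edgeR 4.0.16 (quasi-likelihood) on the 6 libraries compared. No column of another sample was used. No pair of libraries agreed within sampling noise (mean chi-square per gene of at least 16.9 within a group). Strand was not used when transcripts were summed, and whether the authors' quantification used it is not known here. Of the genes named, 75 overlap another tested gene. Deviations from group means correlated at 0.324, 0.193 and 0.284 for same-numbered DMSO and combination libraries, 0.542, 0.426 and 0.543 with cytarabine and 0.40, 0.351 and 0.463 with daunorubicin. The main fits had no pairing, and the tests treated the numbers as pairs only in the replicate block, an alternative. That pairing rests on the data, since the labels do not say what a number shares. Genes were named as the 15 protein-coding and 5 long noncoding genes with the largest rise and fall (mean of at least 5 CPM, no overlap of libraries), the 10 with the largest gain and loss in TPM, and members of gene lists; genes and lists were chosen with earlier results of these data known. Some members of the lists are not reported here by name. DESeq2 1.42.0, limma 3.58.1 (voom) and other normalizations, filters and designs were alternatives. Code ran in R 4.3.3 and Python 3.11.15, and the tests were checked on simulated counts.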

Additional observations from a re-analysis of the deposited data

How the results depend on the processing

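Against DMSO, library totals alone (an alternative chosen after seeing the data) gave 486 lower calls, glmTreat, which tests against the fold threshold, gave 1372 higher and 289 lower, and the false discovery rate alone gave 4173 and 3668. With each library left out in turn there were 2315 to 2664 higher and 781 to 1133 lower calls. Against cytarabine, where edgeR called 0 genes, DESeq2 gave 9 higher and 5 lower, limma voom 2 higher, no low-count filter 48 and 34, and the replicate block 41 and 16, and leaving out a library gave 0 to 2 higher. Against daunorubicin, library totals alone gave 242 lower calls, glmTreat 162 and 31, and the false discovery rate alone 2190 and 2279, with 696 to 1026 higher and 276 to 576 lower when a library was left out. The remaining settings, among them DESeq2, limma voom, the replicate block and a fit of all 12 libraries, moved neither count against DMSO by over 1.5 times. The cause of the other differences was not tested; glmTreat and the false discovery rate alone change the threshold itself.

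Of 187 named genes called against DMSO, 15 lost the call when a library was left out, 17 with library totals alone, 45 with glmTreat and 0 with the replicate block, and 0 of 241 reversed. Beside the list counts given in the text and CCNA2, the block changed no other call of a named gene against DMSO. The median over all genes was 0.03 with TMM and 0.27 with library totals alone. Genes near 1 CPM or below rest on few counts, and counting intervals cover counting error only.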
